A study of Mus musculus with 18 samples.

Results

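Gsta2, Gsta3, Gsta4, Gstm1, Gstp1, Nqo1, Gclc, Gclm, Txnrd1 and Srxn1 are genes of glutathione and thioredoxin chemistry that are widely used as targets of the transcription factor NRF2. They were taken by name from the gene counts, 10 of the 78239 genes listed, and all 10 had at least 10 counts in every library. The choice was made with earlier results of these data known. Gsta2, Gsta3 and Gsta4 were higher in female than in male kidneys, with no overlap between the sexes, where 8.4% of all genes tested had none. The sexes also differed in the time from a last injection to collection. The differences between diets did not pass the test for any of the 10 genes in either sex.

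Glutathione is a small thiol peptide that cells use to quench oxidants and to tag reactive molecules for export. Glutamate cysteine ligase, made of the catalytic subunit Gclc and the modifier subunit Gclm, catalyses the step that limits its synthesis, and glutathione S-transferases (Gsta, Gstm and Gstp genes) join it to electrophiles. NRF2, encoded by Nfe2l2, is held in the cytoplasm and marked for degradation by KEAP1, and under oxidative or electrophilic stress it enters the nucleus and binds antioxidant response elements with a small MAF partner. Nqo1 (a quinone reductase), Txnrd1 (which keeps thioredoxin reduced) and Srxn1 (which repairs over-oxidised peroxiredoxins) are among its best known targets. The kidney proximal tubule takes up and breaks down much of the circulating glutathione and makes its own.

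The libraries came from kidneys of 6-wk-old CD-1 mice, an outbred strain labelled as wild type in all groups. Dams ate a low protein (LP, 8% protein) or a normal protein (NP, 18%) diet through gestation and lactation, and all offspring ate the NP diet from weaning at 3 wk. The groups held 5 LP and 5 NP males and 5 LP and 3 NP females, with 1 poly(A) library per mouse from left kidney tissue, and the labels do not tie mice to litters. All mice had been given cationic ferritin, a contrast agent, and males were killed 90 min and females 24 h after its last injection, so sex and time since injection cannot be told apart. NRF2 itself was not manipulated in any group.

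Reads assigned to genes numbered 14050486 to 23562411 per library (median 16747971), and values are given as CPM, the counts of a gene per 1000000 reads assigned to genes, after TMM scaling of the library totals. The kidney markers fitted the tissue label, since the 8 markers of proximal tubule segments S1 and S2 summed to between 7572 and 16090 CPM in every library. Of the 3 adrenal cortex markers, Cyp11b1 was listed at 0 in all libraries and the sum reached at most 3.77 CPM. LP female 1, LP female 2 and NP female 3 stood apart from the other 15 libraries. Fkbp5, a glucocorticoid-induced gene, lay between 21.4 and 44.5 CPM in these 3 libraries and between 248 and 602 CPM in the others, and Ifit1, an interferon-induced gene, lay between 4.19 and 5.56 CPM against 115 to 686 CPM. Zbtb16, also glucocorticoid-induced, was at most 1.09 CPM in these 3 libraries and at least 9.47 CPM in the others. Not all such genes set these 3 libraries apart. In NP female 3 the Tsc22d3, Per1, Sgk1 and Pdk4 levels (90.04, 90.3, 236 and 50.2 CPM) were within or above the range of the males. In LP female 1 and LP female 2 this held for Per1 (53.6 and 34.6 CPM) and Sgk1 (81.0 and 135.5 CPM). Their Tsc22d3 (51.5 and 42.7 CPM) and Pdk4 (12.9 and 16.1 CPM) levels were below the range of the males. NP female 3 also had the highest share of reads that fit several places, 12.6% against 5.92 to 8.91% in the other 17 libraries, and the highest share not assigned to 1 gene, 36.1%. The tests of the 10 genes that include females are given with and without these 3 libraries.

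The genes lie on 7 chromosomes of the mouse genome (GRCm39, positions of GENCODE vM39). Chromosome 9 holds 3 of them, with Gsta2 (ENSMUSG00000057933.11) at chr9:78238292-78263077 on the minus strand and Gsta4 (ENSMUSG00000032348.7) at chr9:78090056-78117763 and Gclc (ENSMUSG00000032350.10) at chr9:77661797-77701770 on the plus strand, so that 2 alpha-class transferases and the catalytic subunit of glutamate cysteine ligase sit close together. Gsta3 (ENSMUSG00000025934.16) at chr1:21310806-21335885 is on the plus strand of another chromosome. The mu and pi transferases are Gstm1 (ENSMUSG00000058135.13) at chr3:107919380-107925380 and Gstp1 (ENSMUSG00000060803.7) at chr19:4085405-4088068, both on the minus strand, and the modifier subunit is Gclm (ENSMUSG00000028124.17) at chr3:122039126-122065061 on the plus strand. The remaining genes are Nqo1 (ENSMUSG00000003849.9) at chr8:108113835-108129934 on the minus strand and Txnrd1 (ENSMUSG00000020250.12) at chr10:82669785-82733546 and Srxn1 (ENSMUSG00000032802.9) at chr2:151947436-151957687 on the plus strand. The counts are over all exons of each gene, so isoforms were not told apart.

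The sequence just upstream of the start of transcription is shown for 6 of the genes, because antioxidant response elements of NRF2 targets often lie near the start. These are the 3 that were higher in females and Gclm, Txnrd1 and Srxn1, which hold a match to the letters marked below. Gstm1, Gstp1, Nqo1 and Gclc, which held no such match in the same stretch, are not shown. Each run is the 130 bases before the start of the GENCODE canonical transcript, 5′ to 3′ on the strand of the gene, in GRCm39. Capitals mark the 9 letters TGACNNNGC, a loose form of the antioxidant response element core, or TGAGNNNGC, on either strand.
Gsta2 chr9:78254473-78254602 minus strand: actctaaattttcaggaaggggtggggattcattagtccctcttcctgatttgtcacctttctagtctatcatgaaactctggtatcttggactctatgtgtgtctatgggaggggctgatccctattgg
Gsta3 chr1:21310676-21310805 plus strand: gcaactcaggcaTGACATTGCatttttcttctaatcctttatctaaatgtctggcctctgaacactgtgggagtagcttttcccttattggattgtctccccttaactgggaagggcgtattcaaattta
Gsta4 chr9:78099099-78099228 plus strand: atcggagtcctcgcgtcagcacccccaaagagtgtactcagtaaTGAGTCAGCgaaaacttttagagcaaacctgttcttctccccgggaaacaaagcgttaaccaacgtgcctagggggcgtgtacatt
Gclm chr3:122038996-122039125 plus strand: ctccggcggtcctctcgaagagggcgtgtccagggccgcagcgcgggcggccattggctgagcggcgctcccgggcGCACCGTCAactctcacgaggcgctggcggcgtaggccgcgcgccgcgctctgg
Txnrd1 chr10:82694883-82695012 plus strand: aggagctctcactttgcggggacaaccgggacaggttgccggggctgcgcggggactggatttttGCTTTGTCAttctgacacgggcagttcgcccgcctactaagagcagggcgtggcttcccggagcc
Srxn1 chr2:151947314-151947443 plus strand: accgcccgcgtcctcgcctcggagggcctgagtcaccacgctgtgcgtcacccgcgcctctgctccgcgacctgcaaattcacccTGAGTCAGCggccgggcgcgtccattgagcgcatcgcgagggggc
TGACNNNGC was found within these 130 bases in Gsta3, Gclm and Txnrd1, at 118, 54 and 65 bases before the start, 3 of the 10 genes, against 5.851% of 21757 protein-coding promoters. The stricter letters TGAGTCAGC were found in Gsta4 and Srxn1, at 86 and 45 bases before the start, 2 of the 10 genes, against 0.175% of promoters. The loose form TGAGNNNGC was in the same 2 genes against 7.777% of promoters, and TGACTCAGC was in 0 of the 10 genes against 0.198%. The forms with TGAG were added after the sequences had been seen, and Gsta2 held neither form in the 1000 bases before its start. Over that longer window TGACNNNGC was in 3 of the 10 genes against 28.198% of promoters, and TGAGNNNGC in 3 of 10 (Gsta4, Nqo1 and Srxn1) against 39.592%, the Nqo1 match lying 339 bases before the start. TGAGTCAGC was in the same 2 genes over that window against 1.02% of promoters, and TGACTCAGC in 0 of 10 against 1.328%. These are matches of letters and not binding sites. Genes with a match within 130 bases were found both among those that differed strongly between the sexes (Gsta3, Gsta4) and among those that did not pass that test (Txnrd1, Srxn1).

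For comparison between genes the levels were divided by the length of the canonical transcript. In males Gstm1 was highest, at 461 ± 73.7 CPM per kilobase (mean ± SD, n = 10), followed by Gstp1 (222 ± 85.5), Gclc (107 ± 15.98), Gclm (54.5 ± 5.82) and Txnrd1 (51.9 ± 4.21). Gsta3 (20.7 ± 2.60), Nqo1 (14.1 ± 3.27), Gsta2 (10.97 ± 3.53), Gsta4 (9.08 ± 3.14) and Srxn1 (8.35 ± 0.699 CPM per kilobase) were lower. Neighbours in this order whose ranges did not overlap were Gstp1 and Gclc, Gclc and Gclm, and Txnrd1 and Gsta3. In females the order opened with Gsta2 at 331 ± 68.8 CPM per kilobase (n = 8), which was above Gstm1 (317 ± 89.2) in 4 of the 8 females, so these levels did not differ beyond their spread. Gstp1 (162 ± 45.2), Gclc (78.9 ± 19.3), Gsta3 (58.6 ± 10.6), Txnrd1 (49.3 ± 10.3), Gclm (46.0 ± 7.09), Gsta4 (20.8 ± 3.51), Nqo1 (12.3 ± 2.16) and Srxn1 (8.62 ± 1.67 CPM per kilobase) followed. Here Gstp1 and Gclc, Gclm and Gsta4, and Gsta4 and Nqo1 were the neighbours without overlap. Nqo1 and Srxn1 thus sat at the low end in both sexes, while Gsta2 was among the lowest in males and the highest in females.

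Some of these levels are uncertain because reads that fit several genes were not counted. Of the 100-base stretches of the canonical transcript, 47.3% of those of Gstp1 also occur in transcripts of other genes (Gstp2 and the pseudogene Gstp-ps), as do 33.3% of those of Gsta2 (Gsta5, Gsta1 and Gsta13) and 7.18% of those of Gstm1. For the other 7 genes the share was 0%. The libraries were not strand-specific, and Srxn1, Txnrd1, Gclc, Gclm, Gsta2, Gsta3 and Gstm1 overlap an annotated gene on the opposite strand. Gclm and Txnrd1 also overlap a gene on their own strand. A read that fell on exons of both genes of a pair was counted for neither. These overlaps are of whole genes in GENCODE vM39, while the authors counted with vM36, so the effect on the counts is not known.

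**Figure D1:**
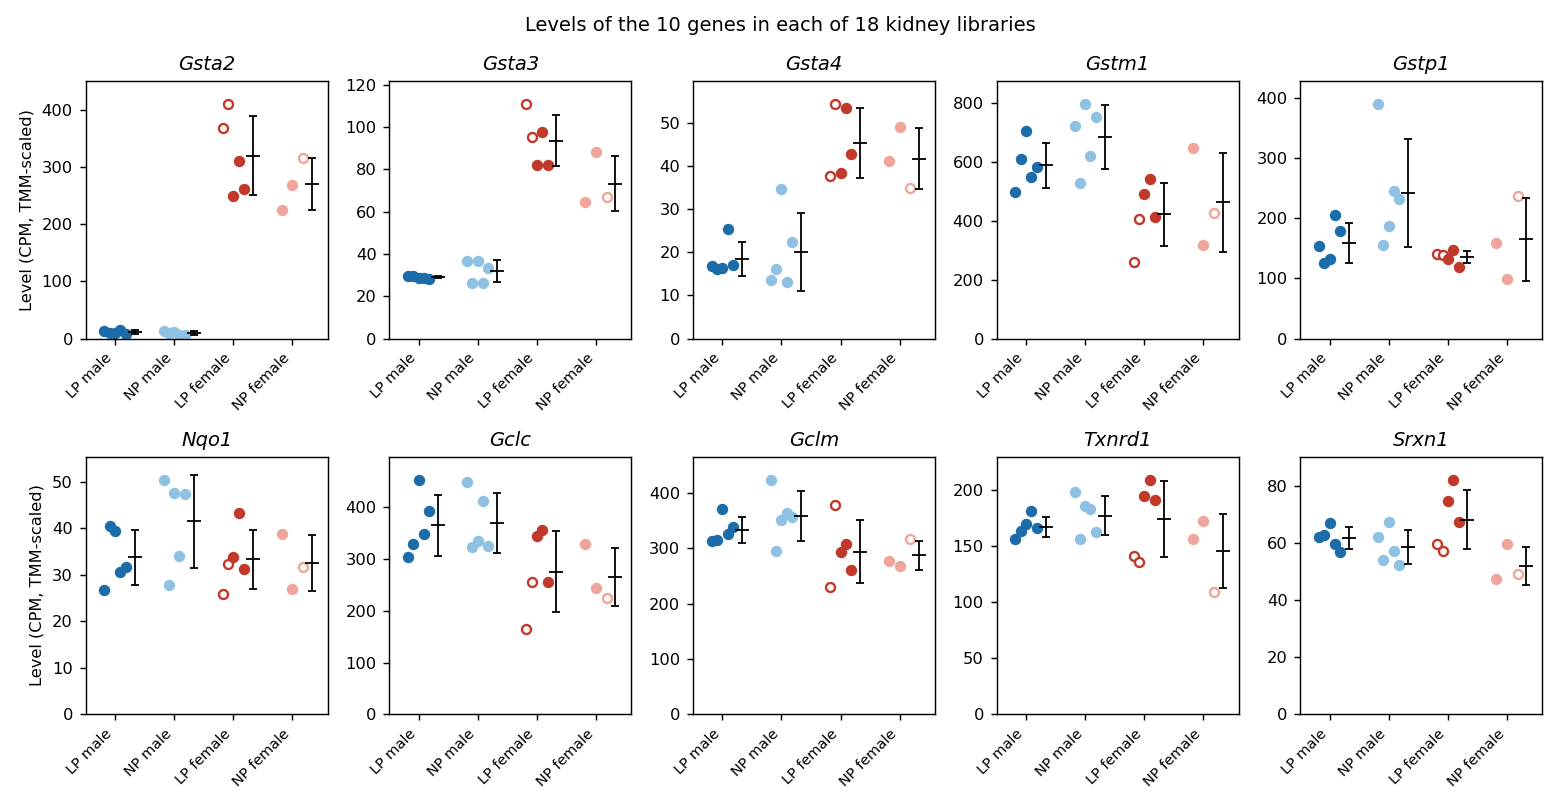
Levels of the 10 genes (vertical axes, TMM-scaled CPM, starting at 0) in the 18 libraries by group. Points are single mice, open points are LP female 1, LP female 2 and NP female 3, and the black bars give the group mean ± SD (n = 5, 5, 5 and 3); for Gsta2, Gsta3 and Gsta4 every female lies above every male.

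The comparison of males with females asked which of the genes differ between the sexes over both diets. Of the 10 genes, 6 passed the test (adjusted p under 0.05 in edgeR's quasi-likelihood test over 12665 genes), 3 lower and 3 higher in males. Sex differences were common in these kidneys: 38.7% of all genes tested passed, 19.8% lower and 18.9% higher in males. The median log2 fold change, males minus females, was 0.15 over the 10 genes and -0.05 over all genes, and the median size without its sign was 0.41 against 0.27. In whole-kidney RNA, fewer cells of a type and less RNA per cell cannot be told apart.

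The 3 alpha-class transferases fell furthest in males. Gsta2, which conjugates glutathione and reduces lipid peroxides, lay at 13.2, 9.04, 8.96, 15.2 and 8.40 CPM in the 5 LP males and at 13.5, 9.57, 10.7, 5.56 and 5.75 CPM in the 5 NP males. In the LP females it lay at 368, 409, 249, 309.7 and 262 CPM, and in the NP females at 225, 269 and 315 CPM. The highest male was thus far below the lowest female, and the 2 diets overlapped within each sex. Gsta2 was 29.6-fold lower in males (log2 fold change -4.89 ± 0.19 SE, adjusted p = 1.76e-11), the difference being -4.87 within LP mice and -4.90 within NP mice on the log2 scale. Females of the 3 libraries that stand apart had the highest levels, 315 to 409 CPM against 225 to 309.7 CPM in the other 5 females, and without them the log2 fold change was -4.72 (adjusted p = 2.42e-10). Gsta5, a gene that shares such stretches with Gsta2 and was named after its values had been seen, lay between 1.09 and 2.48 CPM in males and between 23.0 and 125 CPM in females, a log2 fold change of -5.33. Both genes thus differed in the same direction, and how many reads of each were lost to the other is not known.

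Gsta3, the alpha-class transferase that detoxifies aflatoxin in mice, lay at 29.5, 29.4, 28.7, 28.7 and 28.3 CPM in LP males and at 36.4, 26.0, 36.6, 26.4 and 33.5 CPM in NP males. In LP females it lay at 110.6, 95.04, 81.9, 97.5 and 81.8 CPM and in NP females at 64.5, 88.0 and 67.0 CPM. All 8 females were above all 10 males, and the LP males were close to each other. Gsta3 was 2.73-fold lower in males (log2 fold change -1.45 ± 0.093 SE, adjusted p = 2.39e-09), by -1.69 within LP and -1.20 within NP mice on the log2 scale. Gsta4, which prefers the lipid peroxidation product 4-hydroxynonenal, lay at 16.8, 16.1, 16.4, 25.4 and 17.03 CPM in LP males and at 13.6, 16.1, 34.7, 13.01 and 22.3 CPM in NP males. In LP females its levels were 37.6, 54.2, 38.5, 53.5 and 42.8 CPM, and in NP females 41.2, 48.9 and 34.9 CPM. The highest male, NP male 3, came within 0.23 CPM of the lowest female, but the sexes did not overlap, and Gsta4 was 2.27-fold lower in males (log2 fold change -1.18 ± 0.18 SE, adjusted p = 4.62e-05). NP male 3 and LP male 4, the males with the most Gsta4, also held adipocyte markers (Adipoq, Plin1 and Cidec summed to 25.04 and 29.5 CPM), as did NP male 2 (20.4 CPM), whose Gsta4 level was 16.1 CPM. In the other 7 males these markers summed to at most 0.88 CPM, and their part in the Gsta4 levels was not tested. Libraries of the sexes did not overlap for these 3 of the 10 genes, against 8.4% of all genes tested. Without the 3 libraries that stand apart the log2 fold changes were -1.44 for Gsta3 (adjusted p = 5.70e-08) and -1.25 for Gsta4 (adjusted p = 0.000185).

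Gstm1, Gclc and Gclm rose in males, each by less than 1.5-fold and with overlap between the sexes. Gstm1, a mu-class transferase, ranged from 499 to 795 CPM in males (median 615) and from 259.6 to 647 CPM in females (median 419.8), a 1.43-fold difference (log2 fold change 0.52 ± 0.15 SE, adjusted p = 0.0114). Gclc ranged from 304.5 to 453 CPM in males (median 342) and from 165 to 357 CPM in females (median 256), a 1.36-fold difference (0.44 ± 0.14, adjusted p = 0.0206). Gclm ranged from 295 to 424 CPM in males (median 345) and from 230.1 to 379.6 CPM in females (median 285), a 1.19-fold difference (0.25 ± 0.095, adjusted p = 0.0470). These calls depended on the libraries. Without LP female 1, LP female 2 and NP female 3 the calls of Gstm1 (log2 fold change 0.39, adjusted p = 0.0601) and Gclc (0.27, adjusted p = 0.115) were lost, while Gclm kept its own (0.29, adjusted p = 0.0164) and Gstp1 passed (0.57, adjusted p = 0.0324). Leaving out NP female 3 alone, the library with the most reads that fit several places, ended the call of Gclc (adjusted p = 0.0738) and made that of Gstp1 (adjusted p = 0.0219). The part of those reads in the level of Gstp1 was not tested. The call of Gclm was lost in 16 of the 18 fits that left out 1 library (log2 fold change 0.20 to 0.29); it held without LP female 2 and without NP male 2. With no filter on low counts Gclm was not called either (0.31, adjusted p = 0.0540) and Gstp1 was (0.46, adjusted p = 0.0397).

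Gstp1, Nqo1, Txnrd1 and Srxn1 did not pass the test between the sexes. The log2 fold change, males minus females, was 0.39 for Gstp1 (95% interval 0.02 to 0.77, adjusted p = 0.0924), 0.18 for Nqo1 (-0.10 to 0.47, adjusted p = 0.303), 0.11 for Txnrd1 (-0.11 to 0.33, adjusted p = 0.429) and 0.01 for Srxn1 (-0.16 to 0.19, adjusted p = 0.919). For Srxn1 the interval leaves room for a fold of 0.893 to 1.14 between the sexes. Txnrd1 lay between 109 and 141 CPM in the 3 libraries that stand apart, between 157 and 209 CPM in the other 5 females and between 156.5 and 198 CPM in the males. The level of Txnrd1 in these 3 females was thus below that of every other library, and without them the sign of its sex difference turned (-0.08), as did that of Srxn1 (-0.09), while Nqo1 had 0.11.

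**Figure D2:**
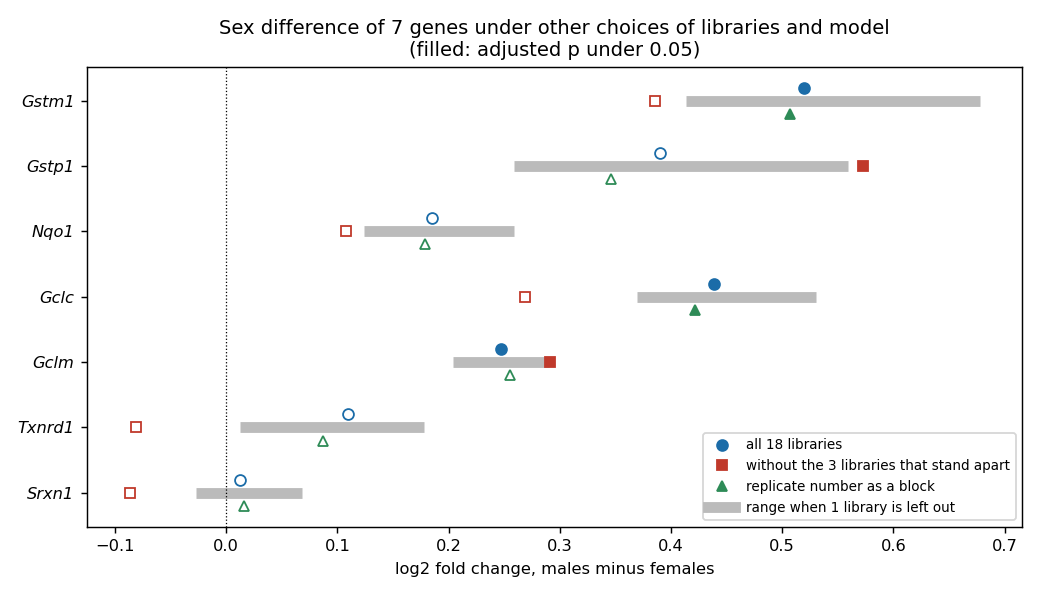
Log2 fold change, males minus females (horizontal axis), of the 7 genes other than Gsta2, Gsta3 and Gsta4, with all 18 libraries, without the 3 libraries that stand apart and with a block term for the replicate number; grey bars span the fits that leave out 1 library. Filled symbols passed an adjusted p under 0.05; Gstm1 and Gclc pass with all libraries and not without the 3, and Gstp1 the other way round.

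Some markers of kidney cell types differed with sex too, where 18.9% of all genes tested were higher and 19.8% lower in males. Of the 5 S3 proximal tubule markers tested, 3 passed as higher and 1 as lower in males. The list of 6 summed to between 7247 and 10810 CPM in males and between 1253 and 3663 CPM in females. Slc7a12, which had too few counts in males to be tested, went against this sum. It lay between 0.055 and 0.553 CPM in males and between 38.9 and 307 CPM in females. Of the S1 and S2 markers 2 of 8 were higher and 1 lower in males. Lower in males were 3 of 4 thick ascending limb, 3 of 3 distal convoluted tubule, 2 of 4 principal cell, 4 of 4 intercalated cell, 4 of 4 podocyte and 2 of 4 macrophage markers, and 3 of 6 glucocorticoid-induced genes. None of the 4 endothelial, 4 stromal, 7 interferon-induced or 1 red cell genes tested passed, and no lymphocyte, adipocyte or adrenal marker had enough counts to be tested; Hba-a2 and Hbb-bs were listed at 0 in all libraries. The part of these shifts in the sex differences of the 10 genes was not tested.

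The comparison of LP with NP males asked whether the maternal diet left a difference in the adult male kidney. No gene of the 10 passed the test (0 of 10, against 5 of 13181 genes or 0.0379% of all tested), and the lowest adjusted p was 0.9996. At an unadjusted p under 0.05 there was 1 of the 10 genes, Gstp1, against 3.84% of all genes. The DESeq2 Wald test likewise passed 0 of the 10 genes. The median log2 fold change, LP minus NP, was -0.11 over the 10 genes and -0.0039 over all genes, with 8 of the 10 below 0. For none of the 10 were the groups free of overlap, against 0.668% of all genes.

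Gstp1, the pi-class transferase, had the largest diet difference of the 10 genes in males. It lay at 153.5, 125, 133, 205 and 179.6 CPM in LP males and at 389, 156, 186.5, 245 and 233 CPM in NP males. The groups overlapped, with NP male 1 above all other libraries. The log2 fold change was -0.60 ± 0.22 SE (95% interval -1.09 to -0.12, unadjusted p = 0.0191, adjusted p = 0.9996), and the exact two-sided permutation test over the 252 reassignments of the diet labels gave p = 0.0556. Without NP male 1 the log2 fold change was -0.36 (adjusted p = 0.9995).

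Nqo1 lay at 26.6, 40.4, 39.4, 30.5 and 31.6 CPM in LP males and at 50.3, 27.8, 47.6, 34.1 and 47.4 CPM in NP males. The highest 3 of these were NP males, yet NP male 2 was next to the lowest, and the groups overlapped. For the genes other than Gstp1 in males the log2 fold change was -0.30 for Nqo1 (95% interval -0.68 to 0.08), 0.29 for Gsta2 (-0.29 to 0.86), -0.21 for Gstm1 (-0.49 to 0.06), -0.13 for Gsta3 (-0.38 to 0.11) and -0.12 for Gsta4 (-0.68 to 0.44). It was -0.10 for Gclm (-0.32 to 0.11), -0.08 for Txnrd1 (-0.27 to 0.11), 0.07 for Srxn1 (-0.12 to 0.27) and -0.01 for Gclc (-0.30 to 0.27). The narrowest intervals, those of Txnrd1 and Srxn1, leave room for folds of 0.831 to 1.08 and of 0.921 to 1.20. The widest, those of Gsta2 and Gsta4, leave room for folds of 0.819 to 1.82 and of 0.626 to 1.36.

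In females the same comparison had 5 LP against 3 NP libraries, and no gene of the 10 passed (0 of 10, against 0 of 13510 genes or 0.0% of all tested; 4.17% of all genes and 1 of the 10 had an unadjusted p under 0.05). With the DESeq2 Wald test 9 genes of all tested passed and again none of the 10. The median log2 fold change was 0.09 over the 10 genes and -0.01 over all genes, with 8 of the 10 above 0. The groups overlapped for all 10 genes, while 2.98% of all genes tested had groups that did not. The spread between libraries was wider in females, where the common biological coefficient of variation was 0.307, than in males, where it was 0.204.

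Srxn1 and Gsta3 had the lowest unadjusted p in females. Srxn1 lay at 59.5, 57.3, 74.7, 82.0 and 67.4 CPM in LP females and at 47.3, 59.7 and 49.0 CPM in NP females, so 2 LP libraries fell below the highest NP library. Its log2 fold change was 0.39 ± 0.17 SE (95% interval 0.01 to 0.78, unadjusted p = 0.0447, adjusted p = 0.886), and the exact two-sided permutation test over 56 reassignments gave p = 0.0714, where the smallest p that 5 against 3 libraries allow is 0.0179. Gsta3, with the levels given above, had a log2 fold change of 0.35 ± 0.16 SE (95% interval -0.01 to 0.71, unadjusted p = 0.0576, adjusted p = 0.886, exact permutation p = 0.0714), and only NP female 2 reached into the range of the LP females. Without the 3 libraries that stand apart, which leaves 3 LP and 2 NP females, the values were 0.49 for Srxn1 and 0.20 for Gsta3, with adjusted p = 0.972 for both.

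The log2 fold changes of the other genes in females were -0.27 for Gstp1 (95% interval -0.78 to 0.25), 0.26 for Txnrd1 (-0.24 to 0.75), 0.25 for Gsta2 (-0.19 to 0.68), -0.13 for Gstm1 (-0.75 to 0.50) and 0.12 for Gsta4 (-0.30 to 0.53). For Gclc, Nqo1 and Gclm they were 0.06 (-0.53 to 0.64), 0.04 (-0.38 to 0.47) and 0.04 (-0.34 to 0.43). The intervals of Gclc and Gclm leave room for folds of 0.695 to 1.56 and of 0.788 to 1.34, so the data from females do not settle differences of that size in the 2 subunits of glutamate cysteine ligase. The sign of the differences of Gstm1 and Gstp1 turned when the 3 libraries that stand apart were left out (0.0079 and 0.055). The other values were then 0.28 for Txnrd1, 0.16 for Gsta2, 0.16 for Gclc, 0.14 for Nqo1, 0.089 for Gclm and 0.0040 for Gsta4.

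**Figure D3:**
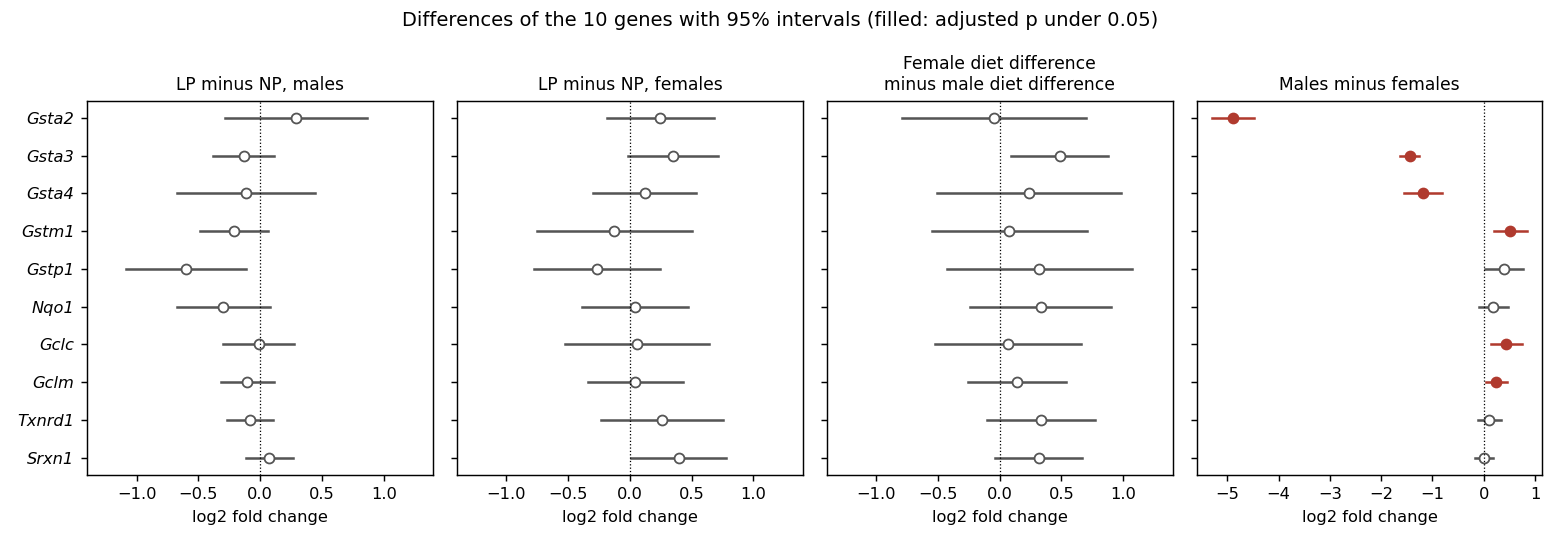
Log2 fold changes (horizontal axes) with 95% intervals of the 10 genes for LP minus NP in males, LP minus NP in females, the difference between these differences, and males minus females. Filled points passed an adjusted p under 0.05: 0 genes in the first 3 panels and 6 in the last, whose axis is wider because Gsta2 reaches -4.89.

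The interaction of diet and sex tested whether the diet difference itself differed between females and males, and again no gene of the 10 passed (0 of 10, against 2 of 12665 genes or 0.0158% of all tested; 4.02% of all genes and 1 of the 10 had an unadjusted p under 0.05, and the DESeq2 Wald test passed 4 genes of all and none of the 10). With all libraries Gsta3 had the largest difference, 0.48 ± 0.19 SE on the log2 scale, females minus males (95% interval 0.09 to 0.88, unadjusted p = 0.0186, adjusted p = 0.977). For the other 9 genes the values ran from -0.04 (Gsta2) to 0.34 (Txnrd1), and 9 of the 10 genes had a value above 0. Without the 3 libraries that stand apart the order changed. Gstp1 then had the largest value (0.65), followed by Nqo1 (0.43), Srxn1 (0.40), Txnrd1 (0.35), Gsta3 (0.32), Gstm1 (0.21), Gclm (0.18), Gclc (0.17), Gsta4 (0.11) and Gsta2 (-0.14), all at an adjusted p = 0.999. The female and male diet differences share no libraries, but the 10 genes share the libraries of each comparison, so this count is not 9 independent results.

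Genes around the 10 were taken from 5 lists of NRF2 control, glutathione synthesis and breakdown, glutathione S-transferases, thioredoxin and peroxidase genes, and other NRF2 targets, 82 genes without the 10 themselves. None of these passed in the diet comparisons (0 of 67 tested in males, 0 of 71 in females) or in the interaction (0 of 66). Between the sexes 21 of 66 passed as higher and 20 as lower in males, where 18.9% of all genes tested passed as higher and 19.8% as lower. The median log2 fold change of the 66 was 0.04. The counts of higher and lower genes that follow are likewise of genes that passed. Of 10 other genes of glutathione synthesis, recycling and breakdown tested, 7 were higher and 0 lower in males (median 0.61), and of 12 other transferases tested, 0 were higher and 9 lower (median -0.76). Of the thioredoxin and peroxidase genes 3 of 17 were higher and 4 lower, and of the other NRF2 targets 8 of 19 were higher and 6 lower. Differences between the lists were not tested. Without the 3 libraries that stand apart, counted so after the data had been seen, 20 of 67 were higher and 22 lower, where 2354 and 2524 of all 12949 genes tested were.

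The regulators of NRF2 were measured too. Nfe2l2, which encodes NRF2, was 1.38-fold lower in males, at 59.9 to 81.9 CPM against 72.2 to 106.9 CPM in females (log2 fold change -0.46 ± 0.084 SE, adjusted p = 0.000328; -0.56 without the 3 libraries that stand apart). Keap1, its inhibitor, rose 1.25-fold (0.32 ± 0.12, adjusted p = 0.0444; 0.40 without those 3), a call that was lost in 12 of the 18 fits that left out 1 library and, once replicate numbers were fitted as a block, at an adjusted p = 0.0678. Of the 8 genes of NRF2 control, Sqstm1, an adaptor that takes KEAP1 to autophagy, was 1.68-fold higher in males (adjusted p = 0.00034), Cul3, the ligase scaffold that works with KEAP1, was 1.33-fold higher (adjusted p = 0.000715), and 4 did not pass. These are transcript levels, and NRF2 activity is set largely through the protein.

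Among the genes of glutathione synthesis and breakdown, those with the lowest adjusted p were Cbs (log2 fold change 1.32, adjusted p = 5.37e-07), which makes cystathionine on the way to cysteine, Ggct (1.68, adjusted p = 1.80e-06), which breaks down gamma-glutamyl peptides, and Ggt1 (1.31, adjusted p = 2.62e-06), the brush-border enzyme that opens glutathione breakdown. All 3 were higher in males, as were Gclc and Gclm with their smaller differences. Glrx, glutaredoxin, was 2.02-fold higher in males (adjusted p = 1.40e-05), and Me1, a source of NADPH and an NRF2 target in several tissues, was 2.81-fold higher (adjusted p = 5.39e-09). In the other direction Gsto1 (-1.58, adjusted p = 5.92e-09), Gstm7 (-1.82, adjusted p = 9.72e-08) and Mgst1 (-1.13, adjusted p = 3.99e-06), all transferases, were lower in males together with Gsta2, Gsta3 and Gsta4. Cbr1, a carbonyl reductase, was 8.90-fold lower in males (adjusted p = 7.81e-10) and Abcc3, which exports conjugates from cells, 21.6-fold lower (adjusted p = 2.07e-07). Genes called NRF2 targets were thus found on both sides of the sex difference. Without the 3 libraries that stand apart all 10 of these list genes still passed, the log2 fold change being -4.85 for Abcc3, -3.39 for Cbr1 and -0.91 for Mgst1.

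Close relatives of the members did not all behave alike. Among mu-class genes, Gstm1 was higher in males while Gstm2 (log2 fold change -0.62, adjusted p = 0.00587), Gstm5 (-0.67, adjusted p = 6.35e-05) and Gstm7 were lower, and Gstm4 did not pass (-0.02, adjusted p = 0.931; its sign turned without the filter on low counts, with the filter of edgeR and without the 3 libraries that stand apart). Without those 3 libraries Gstm2 (-0.68, adjusted p = 0.0110), Gstm5 (-0.69, adjusted p = 0.000439) and Gstm7 (-1.71, adjusted p = 1.05e-06) still passed, and Gstm1 did not (0.39, adjusted p = 0.0601). Gstm3, Gstm6, Gsta1, Gsta13, Gstp2 and Gstp3 had too few counts to be tested between the sexes, Gstp2 reaching 2.38 CPM in the library with the most and Gsta1 0.779 CPM. Hmox1, the heme oxygenase that NRF2 induces and that was named after its values had been seen, lay between 11.3 and 12.1 CPM in the 3 libraries that stand apart, between 26.5 and 105 CPM in the other 5 females and between 83.3 and 137 CPM in males. Its log2 fold change, males minus females, was 1.301 with all libraries (adjusted p = 0.0147) and 0.78 without the 3 (adjusted p = 0.0203).

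**Figure D4:**
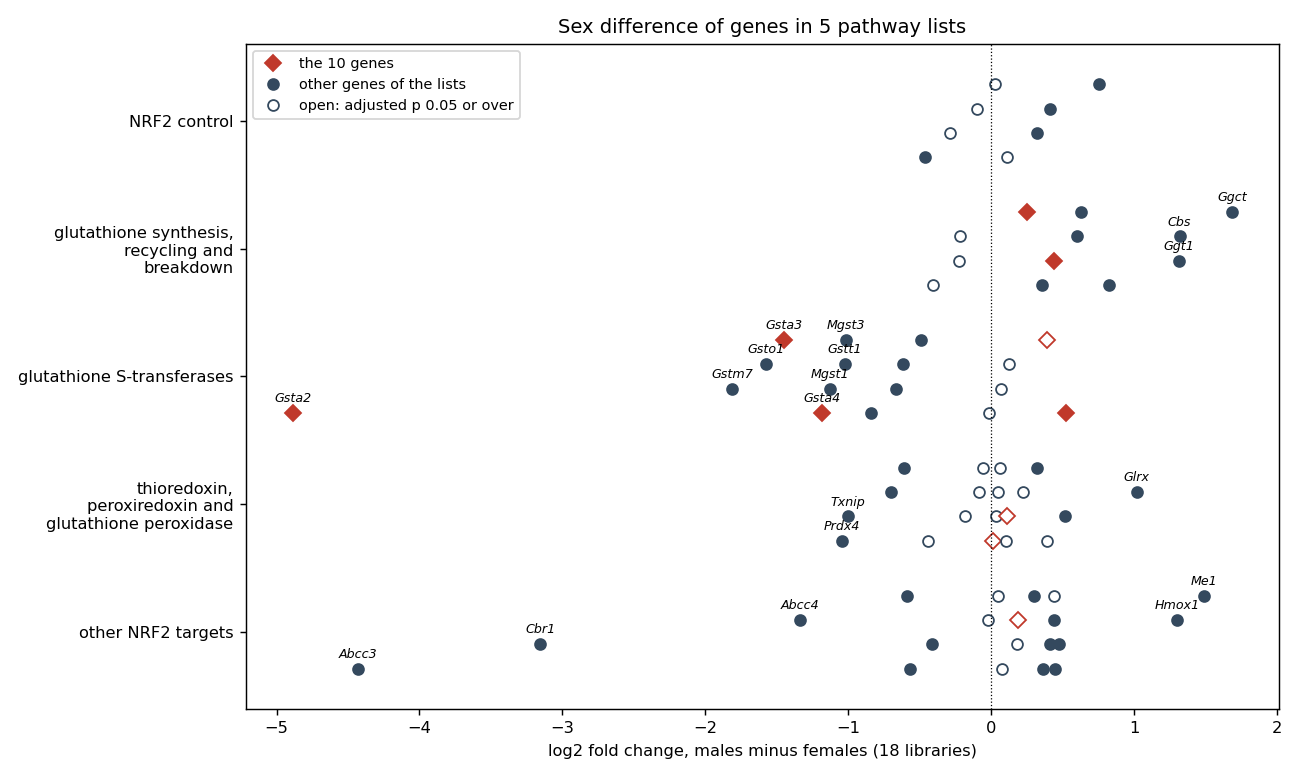
Log2 fold change, males minus females (horizontal axis), of all genes tested in 5 pathway lists, with the 10 genes as diamonds and the other genes as circles. Filled symbols passed an adjusted p under 0.05, and names are given beyond 1 on either side. Of the other transferases that passed, 9 lie lower in males and 0 higher. Of the other genes of glutathione synthesis and breakdown that passed, 7 lie higher and 0 lower. Among the open circles, Gstt2 and Gstz1 lie higher and Chac1, Dpep1 and Cth lower.

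The pattern of each gene over the 18 libraries was set beside that of every gene with enough counts, by Pearson's r of log2(CPM + 1), as a description. All points share the library and the sex difference, so r was also taken after the mean of each group had been removed. Among the 10 genes, Gsta2 was most like Gsta3 (r = 0.968 over 18 libraries), but with the group means removed the value fell to r = 0.45, so most of that likeness lay between the sexes. Gsta4 was most like Gsta3 (0.896, and 0.408 without group means). Gstm1 and Gclc were most like each other (0.849 and 0.765), Nqo1 was most like Gstm1 (0.789 and 0.846), and Txnrd1 and Srxn1 were most like each other (0.696 and 0.734), so that these pairs moved together within groups as well. Gclm was most like Gstm1 (0.702 and 0.49) and Gstp1 most like Gclm (0.635 and 0.496). In the 15 libraries without the 3 that stand apart, a set chosen for these correlations after the data had been seen, r with group means removed was 0.457 for Gsta2 and Gsta3, 0.509 for Gsta4 and Gsta3, 0.612 for Gstm1 and Gclc, 0.85 for Nqo1 and Gstm1, 0.634 for Txnrd1 and Srxn1, 0.544 for Gclm and Gstm1, and 0.663 for Gstp1 and Gclm.

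Over all 12665 genes compared, the single gene most like a member was Gsta5 for Gsta2 (r = 0.987), Gm16010 for Gsta3 (0.968), Rdh16 for Gsta4 (0.913), Acadl for Gstm1 (0.951), Gstp-ps for Gstp1 (0.862), Tmem59 for Nqo1 (0.867), Ugdh for Gclc (0.944), Mettl16 for Gclm (0.876) and Lrig1 for Srxn1 (0.802). With group means removed r was 0.575 for Gsta5, 0.289 for Gm16010 and 0.559 for Rdh16, and 0.731 to 0.908 for the other 6 genes named. In the 15 libraries without the 3 that stand apart, r with group means removed was 0.454 for Gsta5, 0.522 for Gm16010 and 0.548 for Rdh16. There it was 0.479 for Lrig1 and 0.73 to 0.926 for the remaining genes named. Of these, Gsta5 and Gstp-ps share sequence with their partner, so that reads may be split between them.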

How the data were processed

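RNA was measured in 18 mouse kidneys, 1 library per mouse, grouped by diet and sex from the labels. Per the paper's methods, the authors trimmed adapters, discarded low-quality reads and aligned with STAR to GRCm39 with GENCODE vM36; versions of the tools are not given in the sources used here. The deposited files hold the whole-number counts per gene that STAR writes, of reads fitting 1 gene only, and the unstranded column was used. The rows of unassigned reads were left out (28.6 to 36.1% of reads per library). Of 78239 identifiers, 78168 were found in GENCODE vM39, whose symbols and positions (GRCm39) were used. Genes reaching 10 counts in each library of a fit were tested with edgeR 4.0.16 (TMM, quasi-likelihood F test, R 4.3.3) over all such genes with Benjamini-Hochberg adjustment: males alone, females alone, and all 18 libraries for sex (mean of both diets) and the interaction. A gene passed at an adjusted p under 0.05, and intervals are 95% intervals of the fit. Exact permutation tests used log2(normalised count + 1) with size factors of DESeq2 1.42.0. The tests were tried on simulated counts. These had the same spread in every comparison, close to that of the males. They do not show how the tests behave at the wider spread of the females. P-values measure the spread between mice, some of which may be littermates.

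The 10 genes, the pathway lists and the markers were chosen with earlier results of these data known. Named in the text are the 10 genes, Nfe2l2 and Keap1, close relatives of the transferases, the 5 list genes of lowest adjusted p in each direction of a comparison, and the gene and the member most like each of the 10 (the gene for Txnrd1 is not reported here); Gsta5, Hmox1, Cul3 and Sqstm1 were named after their values had been seen. Alternatives were no filter, edgeR's filterByExpr, DESeq2 size factors, the DESeq2 Wald test, leaving out each library, the 3 libraries that stand apart left out together, the replicate number as a block, all 4 groups in 1 model for diet, and a further fold of at least 1.5. No counting interval is given, since counts per library were large (at least 82 for each of the 10 genes).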

Additional observations from a re-analysis of the deposited data

Results flagged for a closer look

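Among the 30 combinations of a gene of the 10 with a group of 5 libraries, 1 held a library far from the others of its group by Dixon's 95% value, which chance exceeds in about 5 of 100. Gsta4 was at 25.4 CPM in LP male 4 and between 16.1 and 17.03 CPM in the other 4 LP males. The same library held adipocyte markers at a summed 29.5 CPM, against at most 0.88 CPM in those 4, and the part of this in its Gsta4 level was not tested. The NP female group has 3 libraries and was not examined in this way.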

How the results depend on the processing

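The 10 genes passed the diet tests and the interaction in none of the alternatives. Between the sexes 5 or 6 of them passed under every alternative except the further fold of 1.5, which left 3 (Gsta2, Gsta3 and Gsta4) and 2370 of all genes; leaving out 1 library gave 5 to 6. The counts over all genes moved more. In males 9 passed without the filter, 19 with the DESeq2 Wald test, 2 with the replicate block, 1 in the model of all 4 groups and 2 to 6 with 1 library left out. In females these were 3, 9, 0, 2 and 0 to 2 (2 without NP female 2), and 1 without the 3 libraries that stand apart. For the interaction 4 passed with the DESeq2 Wald test, 0 with the replicate block, 0 without the 3 libraries and 0 to 4 with 1 left out (4 without NP female 2). The deviations of same-numbered libraries of the 2 diets from their group means had correlations of -0.297 to 0.326 in males and -0.606 to -0.389 in females. These few values cannot decide whether the numbers pair mice, and the labels do not say. In females each same-numbered pair held 1 of the 3 libraries that stand apart. The replicate block ended the sex calls of Gclm (log2 fold change 0.25, adjusted p = 0.0883) and Keap1. Without the filter on low counts the sex call of Gclm was lost and Gstp1 was called.

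Signs of small differences turned in places; the cause was not tested. Without the 3 libraries, the log2 fold change was 0.0079 for Gstm1 and 0.055 for Gstp1 by diet in females and -0.082 for Txnrd1, -0.087 for Srxn1 and 0.13 for Gstm4 by sex. With the replicate block it was -0.076 for Nqo1 and -0.10 for Gclc by diet in females and 0.033 for Gsta2 in the interaction, and Gstm4 by sex was 0.048 without the filter and 0.018 with filterByExpr. With 1 library left out, the range was -0.27 to 0.18 for Gsta4 and -0.10 to 0.069 for Gclc by diet in males; -0.32 to 0.21 for Gstm1, -0.51 to 0.079 for Gstp1, -0.064 to 0.21 for Nqo1, -0.053 to 0.26 for Gclc and -0.050 to 0.12 for Gclm by diet in females; -0.24 to 0.11 for Gsta2, -0.062 to 0.39 for Gsta4, -0.13 to 0.39 for Gstm1 and -0.049 to 0.25 for Gclc in the interaction; and -0.027 to 0.068 for Srxn1 and -0.11 to 0.10 for Gstm4 by sex.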
